A study of Mus musculus with 9 samples.

Results

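Between the stretches of the mouse genome that carry H3K27me3 in every library of this experiment and those found in a single library lies a class marked in some libraries and not in others. The regions described here were chosen by interval calls and width from the authors' merged list of 18556 regions, under 3 conditions: a place on chromosomes 1 to 19, an interval in 3, 4 or 5 of the 8 libraries, and a width of 8 kb to under 60 kb. An interval is a stretch that the authors' caller listed as enriched in 1 library, and a library is said to call a region where one of its intervals overlaps the region by at least 1 bp. In all, 1413 regions met the rule, 7.61% of the list and 17.9 Mb of the 257 Mb it spans. Of these, 461 were called in 3 libraries, 470 in 4 and 482 in 5. The calls and the width chose the regions, so both are given as description without a test.

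The libraries came from Lin-c-Kit+ bone marrow cells, a hematopoietic stem and progenitor fraction enriched with selection kits and never cultured, of transplanted female mice treated for 1 month. Wild-type cells (WT) were Dnmt3a+/+, and RH cells carried the R878H allele of the DNA methyltransferase gene Dnmt3a (Dnmt3afl-R878H/+). Both genotypes were C57BL/6 and carried Mx1-cre, so that the controls too hold a Cre driven by an interferon-inducible promoter. Each genotype received either vehicle (VEH) or metformin (MET), a biguanide drug known to act on the mitochondrial respiratory chain, and each of the 4 groups had 2 libraries. By its title, the series concerns the effect of metformin on the growth advantage of R878H progenitors. The sources used here give neither the age of the mice, nor the dose, nor how many host cells remained.

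H3K27me3 is written by Polycomb repressive complex 2, whose catalytic subunit is EZH2 or EZH1, and is bound by Polycomb repressive complex 1 at silenced genes. In stem and progenitor cells it lies most densely over CpG-rich promoters of developmental regulators, while lower and broader stretches of it spread through gene bodies and the ground between genes. DNA methylation, which Dnmt3a lays down, and H3K27me3 tend to occupy different CpG-rich sites. The values below are those of a repressive mark, and the expression of the genes was not measured in these files.

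Across the libraries, 11620 to 16879 intervals covered 80.0 to 186 Mb. The number of reads behind them is unknown, so a missing interval does not show that the mark was absent, and no counting interval can be given. Of 10 progenitor genes, Ptprc, Runx1, Lmo2 and Gfi1b had no interval in any library, while Gata2 and Tal1 were overlapped in all 8, Cd34 in 6, and Spi1 and Myb in 1. Intervals covered 89.1% to 100% of Gata2 and 52.0% to 92.5% of Tal1, against at most 12.4% of Cd34. The progenitor genes thus did not all lack the mark. Among genes of other cells the enrichment could hold, all 4 mast cell and basophil genes were free of intervals, 3 of 4 T cell genes, the B cell genes Pax5 and Ebf1 and 3 of 5 stromal and endothelial genes were overlapped in all 8 libraries, and Cd8a, Cd79a, Cdh5 and Pecam1 in none.

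Promoter sequences show what kind of gene start these regions hold. Each of the following is the 250 bases before a RefSeq gene start on GRCm38.p6, the assembly of mm10, written 5′ to 3′ on the gene's strand with every CpG in capitals. Sypl2, a synaptophysin-like membrane protein of muscle, lies at chr3:108226600-108226849 on the minus strand with 19 CpGs. Proz, the vitamin K-dependent protein Z of blood clotting, lies at chr8:13060658-13060907 on the plus strand with 7. Olfr314, an olfactory receptor, lies at chr11:58785889-58786138 on the plus strand with 2, and Slc6a12, a transporter of betaine and GABA, at chr6:121342324-121342573 on the plus strand, also with 2. These 4 start inside the widest members with 3 calls and a coding gene. The other three belong to blood genes and were chosen after their values were seen: the stem cell factor receptor gene Kit, at chr5:75574737-75574986 on the plus strand with 17 CpGs, the neutrophil enzyme gene Mpo, at chr11:87793534-87793783 on the plus strand with 2, and the lymphoid gene Dntt, at chr19:41029025-41029274 on the plus strand with 2.
Sypl2: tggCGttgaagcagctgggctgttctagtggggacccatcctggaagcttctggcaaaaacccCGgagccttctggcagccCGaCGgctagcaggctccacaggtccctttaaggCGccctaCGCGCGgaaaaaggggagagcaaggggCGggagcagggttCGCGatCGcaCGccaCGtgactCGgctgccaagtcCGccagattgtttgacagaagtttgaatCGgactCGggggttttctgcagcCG
Proz: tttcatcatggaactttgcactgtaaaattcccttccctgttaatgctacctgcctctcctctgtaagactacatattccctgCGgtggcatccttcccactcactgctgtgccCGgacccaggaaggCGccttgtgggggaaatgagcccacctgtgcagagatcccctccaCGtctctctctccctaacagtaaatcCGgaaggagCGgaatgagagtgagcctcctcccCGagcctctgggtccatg
Olfr314: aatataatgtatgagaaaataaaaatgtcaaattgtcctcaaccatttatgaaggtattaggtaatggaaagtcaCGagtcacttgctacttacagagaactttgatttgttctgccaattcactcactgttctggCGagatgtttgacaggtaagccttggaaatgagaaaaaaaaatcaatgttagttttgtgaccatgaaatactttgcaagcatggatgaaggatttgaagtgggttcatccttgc
Slc6a12: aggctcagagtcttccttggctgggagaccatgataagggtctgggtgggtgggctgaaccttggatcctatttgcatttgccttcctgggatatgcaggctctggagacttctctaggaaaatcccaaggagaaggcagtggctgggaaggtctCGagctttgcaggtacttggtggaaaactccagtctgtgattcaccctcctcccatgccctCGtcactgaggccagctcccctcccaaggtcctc
Kit: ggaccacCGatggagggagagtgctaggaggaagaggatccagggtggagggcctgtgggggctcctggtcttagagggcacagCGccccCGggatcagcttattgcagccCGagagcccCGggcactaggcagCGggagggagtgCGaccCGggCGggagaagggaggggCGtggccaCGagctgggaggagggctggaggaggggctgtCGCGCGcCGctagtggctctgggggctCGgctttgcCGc
Mpo: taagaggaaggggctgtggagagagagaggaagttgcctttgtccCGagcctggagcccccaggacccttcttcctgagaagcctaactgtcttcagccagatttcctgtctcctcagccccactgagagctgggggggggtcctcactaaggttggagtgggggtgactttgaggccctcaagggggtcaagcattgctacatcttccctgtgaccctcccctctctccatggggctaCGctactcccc
Dntt: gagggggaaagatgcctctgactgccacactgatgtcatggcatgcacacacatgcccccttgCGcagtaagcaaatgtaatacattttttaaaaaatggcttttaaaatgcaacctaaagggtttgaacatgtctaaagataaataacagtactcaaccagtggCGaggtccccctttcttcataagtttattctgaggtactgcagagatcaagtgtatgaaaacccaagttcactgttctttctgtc

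CpG-poor starts such as those of Olfr314, Slc6a12, Mpo and Dntt were common among the members, and CpG-rich ones such as those of Sypl2 and Kit less so. Over the 300 bases around a start (250 before, 50 after), the 203 RefSeq starts inside members held a median of 8 CpGs. The same window held a median of 18 at the 3857 starts in regions of the same width called in all 8 libraries, and 14 at all 20085 starts on these chromosomes. It held 9 in regions called in 6 or 7 libraries, 5.5 in those called in 1 or 2, and 11 at starts outside all merged regions, so that low CpG numbers were not peculiar to the members. At least 15 CpGs stood at 33.0% of the members' starts, against 59.6% in regions called in all 8 and 48.1% over all starts. The medians were 6, 7 and 9 for members called in 3, 4 and 5 libraries. A start was in the RefSeq promoter table for 16457 protein-coding genes of these chromosomes, and the others were not counted here.

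The 8 libraries contributed very unequally. WT MET 2 called 1194 of the 1413 members (84.5%) and RH VEH 1 called 174 (12.3%). Between them, WT VEH 1 called 494 (35.0%), RH VEH 2 called 581 (41.1%), RH MET 2 called 687 (48.6%), RH MET 1 called 771 (54.6%), WT VEH 2 called 854 (60.4%) and WT MET 1 called 918 (65.0%). Over all 18556 merged regions the same 2 libraries stood at the ends, with 71.1% called in WT MET 2 and 43.2% in RH VEH 1. Libraries of 1 group differed too: in RH VEH the shares of members were 12.3% and 41.1%, and in WT VEH 35.0% and 60.4%. These were also the ends of the length covered, which was least in RH VEH 1 (80.0 Mb) and greatest in WT MET 2 (186 Mb). Between the ends the 2 orders differed, since WT VEH 1 and RH VEH 2 covered 142 and 155 Mb and still called fewer members than RH MET 1 and RH MET 2, which covered 122 and 131 Mb. Those 2 libraries had 12009 and 13339 intervals, against 16879 and 15257 in RH MET 1 and 2.

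**Figure D1:**
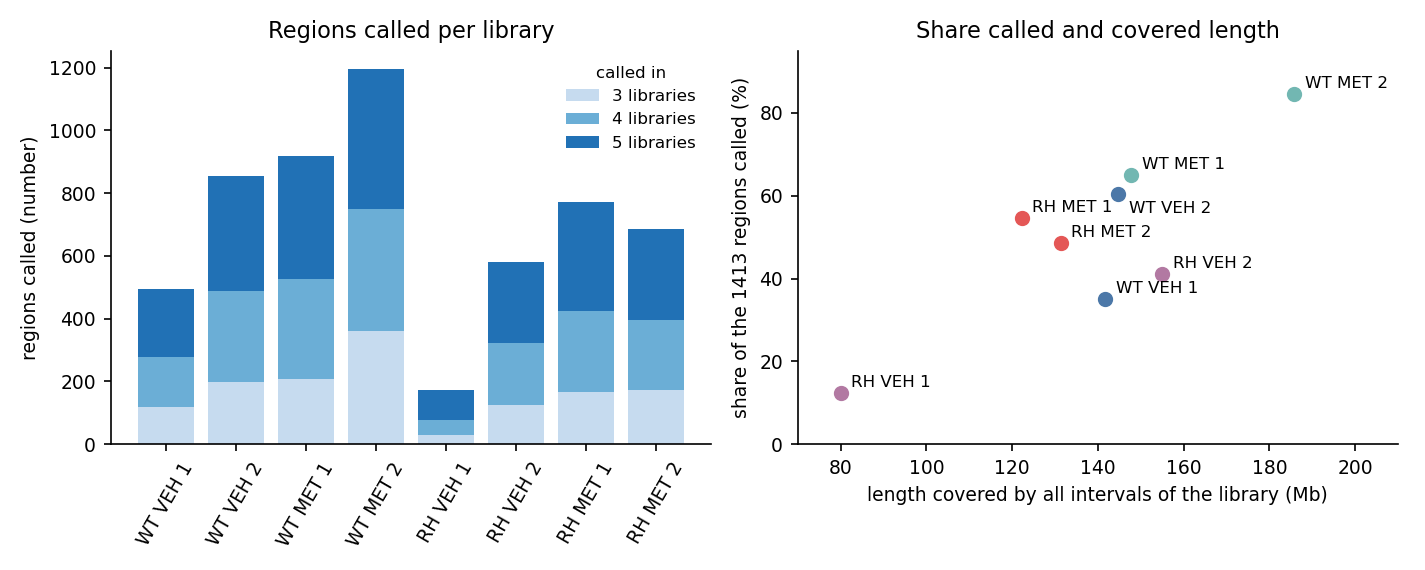
Left, number of the 1413 regions called in each library, split by the number of libraries that call the region. Right, share of the 1413 regions called (percent) against the length covered by all intervals of the library (Mb), 1 point per library. WT MET 2 called 1194 and RH VEH 1 called 174.

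Which libraries called a member varied widely. Of the 182 combinations of 3, 4 or 5 libraries that 8 libraries allow, 152 occurred, 25 of them at 1 member each. The most frequent, at 54 members, joined WT VEH 2, WT MET 1, WT MET 2, RH VEH 2 and RH MET 1, and the 10 most frequent together held 410 members (29.0%). WT MET 2 was in all 10 of these, WT MET 1 in 9, WT VEH 2 in 8, RH MET 2 in 6, RH MET 1 in 5, RH VEH 2 in 2, WT VEH 1 in 1 and RH VEH 1 in none. The triple of WT VEH 2, WT MET 1 and WT MET 2 was present in 442 members (31.3%).

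Libraries of a group often differed at a member, which the rule in part forces. An odd number of calls splits at least 1 group, so only the 470 members with 4 calls could keep every group whole. At 63 of those (4.46% of all 1413 members), both libraries or neither called the member in every group at once. Within WT MET, both libraries called 771 members, 1 of them called 570 and neither called 72. Within RH MET the numbers were 346, 766 and 301, and within WT VEH 261, 826 and 326. Within RH VEH, 50 members were called in both libraries, 655 in 1 and 708 in neither. A call in 1 library alone was thus most frequent in WT VEH, and a call in both was rarest in RH VEH. Exactly 1 library of every group called 68 members, and at least 1 library of every group called 311 (22%). No member was called in all the libraries numbered 1 and none of those numbered 2, and 15 were called the other way round.

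**Figure D2:**
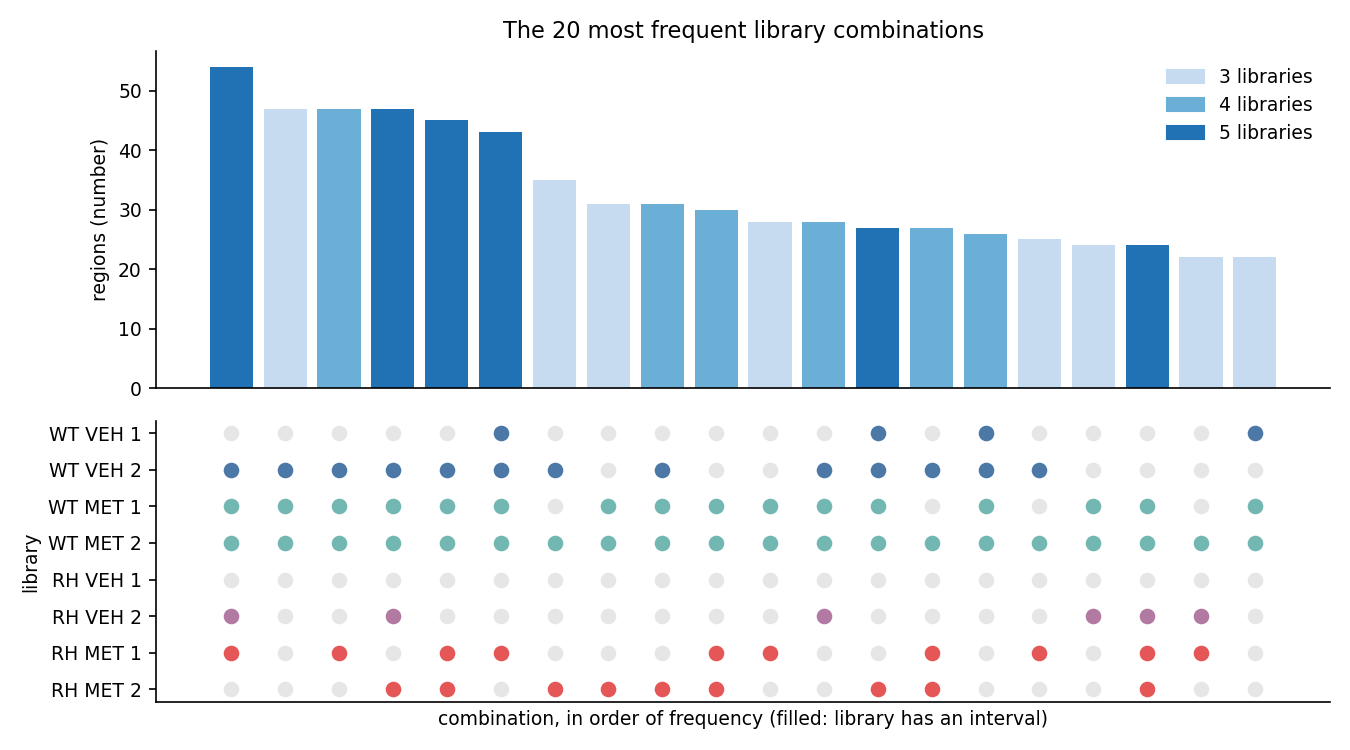
The 20 most frequent combinations of calling libraries among the 1413 regions. Bars give the number of regions per combination, and filled dots below mark the libraries that have an interval. The tallest bar stands at 54, WT MET 2 is filled in each of the 10 most frequent, and RH VEH 1 is filled in none of those shown.

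Members were narrower than regions called everywhere, and their callers covered them in part. Their median width was 11.4 kb, with an interquartile range of 9.4 to 14.4 kb and a maximum of 39.2 kb, against a median of 16.6 kb among the 5196 regions of the same width limits called in all 8. No region with 3 to 5 calls on these chromosomes was too wide for the rule, and 1216 were too narrow. At the lower limit, the 45 members of exactly 8 kb had a median cover of 65% and a median summit percentile of 30.4, and the 47 regions just outside it, of 7.8 kb, had 66.7% and 24.3. A further 654 regions with 3 to 5 calls, of any width, lay on the X chromosome, outside the rule.

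A calling library covered a median of 58.3% of the member. The largest medians were 79.5% in WT MET 2, 73.8% in WT VEH 1 and 72.6% in RH VEH 2, and the lowest were 40.8% in RH MET 1 and 32.6% in RH VEH 1. WT MET 1, WT VEH 2 and RH MET 2 lay between, at 54.2%, 51.2% and 51.0%. The first 3 libraries also had the longest intervals in the members, with medians of 8.2, 8.2 and 8.0 kb, against 3.8 to 6.0 kb in the other five. In regions of the same width limits called in all 8, each library covered more than in the members, from 45.1% in RH VEH 1 to 81.0% in WT MET 2. The gap was under 3 percentage points in WT VEH 1, WT MET 2 and RH VEH 2 and over 12 in each of the other five.

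**Figure D3:**
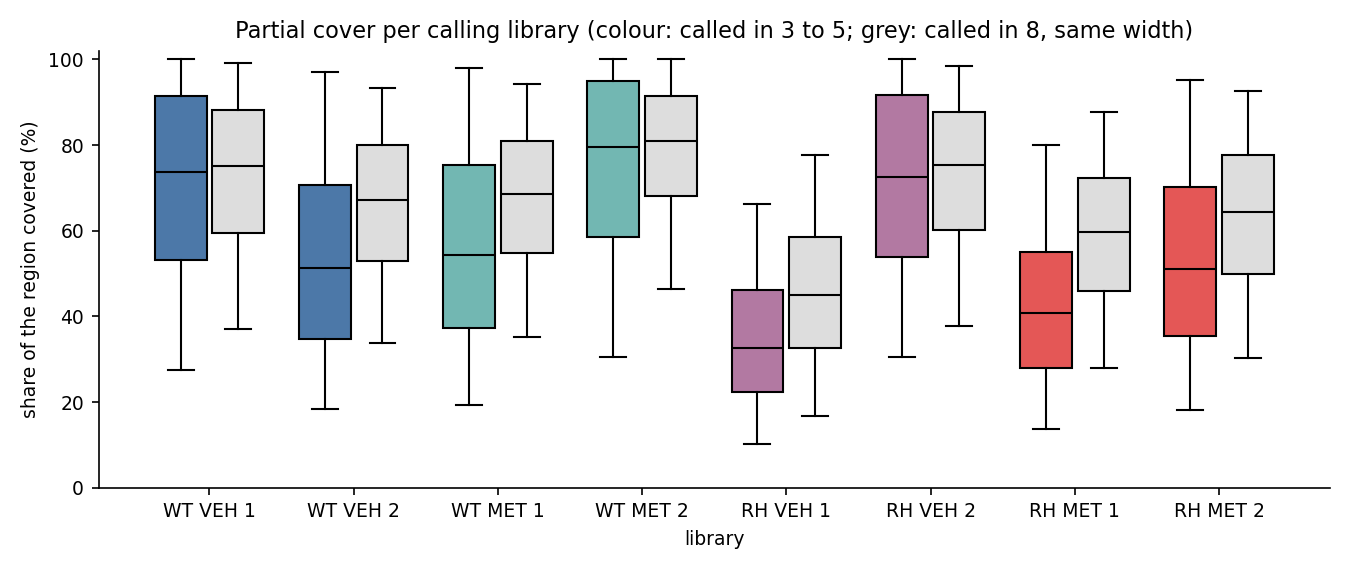
Share of the region covered by a library's intervals (percent), for the 1413 regions in the libraries that call them (coloured boxes) and for regions of the same width limits called in all 8 libraries (grey boxes). Boxes span the quartiles with the median line, and whiskers run from the 5th to the 95th percentile. The coloured medians run from 32.6% in RH VEH 1 to 79.5% in WT MET 2, and each lies below the grey median beside it.

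Callers of a member overlapped each other in part. Bases shared by every caller made up a median of 22.6% of a member, and bases found in 1 library alone made up 30.2%. In 220 members (15.6%) no base was shared by all callers. The library with the widest cover spanned a median of 93.8% of the member, the next 66.2% and the narrowest 32.7%, and in 424 members (30%) 1 library spanned the whole region. WT MET 2 was the widest in 595 members, RH VEH 2 in 220, WT VEH 1 in 191 and WT MET 1 in 165, whereas RH VEH 1 was the widest in 1. With the widest library set aside, the longest remaining stretch was under 8 kb in 656 members (46.4%), so that the width of those regions rests on 1 library. The highest summits of the calling libraries lay a median of 3.71 kb apart, and in 402 members within 2 kb of each other.

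Low summits went with partial calling. Summit height, the authors' own value without a stated unit, was ranked within each library's own list and is given here as a percentile. The median summit percentile of a calling library rose from 17.5 in regions called in 1 library through 23.0, 25.1 and 29.7 in members called in 3, 4 and 5, and 39.8 in those called in 7, to 77.3 in those called in all 8, for the same width limits. Per library, members stood at medians of 15.8 in WT VEH 1, 18.1 in RH VEH 1, 20.7 in RH VEH 2, 24.3 in WT MET 1, 26.2 in WT MET 2, 28.7 in RH MET 2, 29.7 in WT VEH 2 and 32.0 in RH MET 1. Regions called in all 8 had medians of 70.4 to 80.4 in the same libraries, with no overlap between the 2 ranges of medians. The largest step between neighbouring numbers of calls was the last one, from 7 to 8 libraries.

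**Figure D4:**
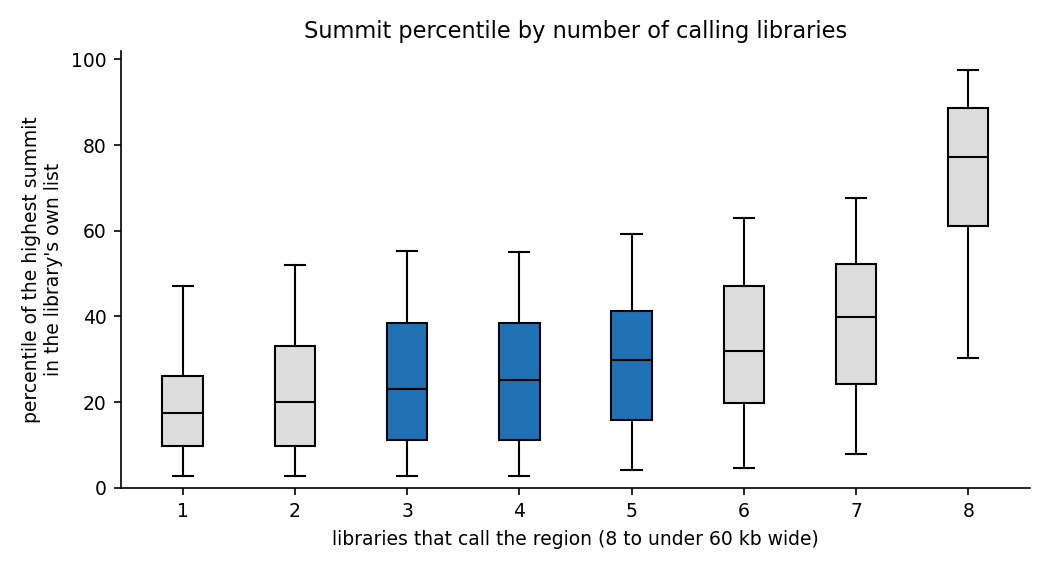
Percentile of the highest summit in the calling library's own list, by the number of libraries that call the region, for regions on chromosomes 1 to 19 of 8 to under 60 kb. Boxes span the quartiles with the median line, whiskers run from the 5th to the 95th percentile, and blue marks regions called in 3, 4 or 5 libraries. Medians rise from 17.5 at 1 library to 39.8 at 7 and stand at 77.3 at 8.

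A few members went against that pattern, with high summits in some libraries and no interval at all in others. The median percentile was above 50 in 86 members (6.09%), above 70 in 7 and above 90 in 4 (0.283%), against 21.9% above 90 among regions called in all 8. The highest was the 27 kb region over Sypl2, at chr3:108211601-108238600, whose CpG-rich start is printed above. Its summit heights were 66 in WT VEH 1, 44 in RH VEH 1 and 113 in RH MET 1, and the other five libraries had no interval. The 3 callers covered 26.6, 19.6 and 24.8 kb, with summits within 0.512 kb of each other. The nearest intervals on either side lay 91.6, 94.2 and 92.0 kb apart in the callers and 90.8 to 93.8 kb apart in the libraries without a call.

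Gdnf, which encodes a neurotrophic factor that signals through the receptor RET, lay in a 25 kb member at chr15:7803001-7828000. Summit heights were 42 in WT VEH 1, 67 in WT MET 1, 70 in WT MET 2, 43 in RH VEH 2 and 63 in RH MET 1, at 21.0 to 24.8 kb of cover. WT VEH 2, RH VEH 1 and RH MET 2 had no interval. All callers shared 83.2% of the region. The 35.4 kb member over Fam83h, Iqank1 and Mapk15 on chr15:75983601-76019000 had heights of 81 in WT VEH 2, 101 in WT MET 1, 48 in RH VEH 1, 89 in RH MET 1 and 74 in RH MET 2, and none in WT VEH 1, WT MET 2 and RH VEH 2. Fam83h is a gene of tooth enamel formation and Mapk15 an atypical MAP kinase. The 3 libraries without a call there are those with the longest intervals in members generally. The last of the 4, with no protein-coding gene, was 9.2 kb wide at chr11:54139401-54148600, with heights of 69 in WT VEH 2, 76 in WT MET 2 and 46 in RH VEH 1. In each of these 4 members the 2 libraries disagreed in 3 of the 4 groups. Dusp7, a phosphatase of MAP kinases, and Notch4, a Notch receptor of blood vessels, came next, with heights of 20 to 32 in 4 libraries and 25 to 29 in 3.

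Most members lay away from gene starts. Of the 1413, 165 (11.7%) held the start of a protein-coding gene, 505 (35.7%) lay in a gene without its start and 743 (52.6%) overlapped no protein-coding gene, 231 of those overlapping a long noncoding RNA gene. Regions of the same width limits called in all 8 held a start in 54.0% and no coding gene in 18.3%. The share with a start was 8.24%, 10.9% and 15.8% at 3, 4 and 5 calls, between 8.28% in regions with 1 or 2 calls and 19.7% in those with 6 or 7. The gap was there in both width classes: members under 12 kb held a start in 12.5% against 53.0% in all-8 regions of that width, and wider members in 10.7% against 54.4%. Where a start was inside, the summits also lay farther from it, at a median of 2.13 kb against 0.523 kb, and 31.1% of calls had their summit within 1 kb of a start, against 70.5%. Regions called in 6 or 7 libraries resembled the members here, at 2.03 kb and 36.9%. Even so, members were not remote from strong marks, since 60.2% lay within 50 kb of a region called in all 8, at a median distance of 33.0 kb.

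Large genes supplied many of the members. In all, 635 protein-coding genes overlapped a member and 176 had their start in one. The median span of the 635 was 54.9 kb, against 17.5 kb for all 20665 on these chromosomes, and 33.7% against 11.2% were longer than 100 kb. The 4916 genes over a region of the same width limits called in all 8 lay between, at a median of 25.7 kb and 20.4%. A longer gene has more room for a region, and length was not adjusted for. A region called in all 8 also overlapped 313 of the 635. At least 2 members lay in each of 63 genes. Asic2, an acid-sensing sodium channel of neurons that spans 1088 kb, held 8 members, each of 8.2 to 17.4 kb and each called in WT MET 2. Another 8 genes held 4 each: Adamts2, a procollagen protease, Atp2b2, a calcium pump of the plasma membrane, Cacna1c, a voltage-gated calcium channel, Myo3b, a myosin of sensory cells, Nav2, a neuron navigator, Pde8b, a cyclic AMP phosphodiesterase, Tln2, a talin, and Tmem108.

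Of the 13 members of at least 30 kb, 7 overlapped a protein-coding gene, and the widest of those with a gene are described here. The widest of all, 39.2 kb at chr15:76107001-76146200 over BC024139 and the epithelial plakin gene Eppk1, was covered over 37.6 kb in WT MET 1, 34.8 kb in RH VEH 2, 29.6 kb in RH MET 1, 19.8 kb in RH VEH 1 and 12.8 kb in WT VEH 1, and had no interval in the other three. Its callers shared 9.69% of the bases, and its median summit percentile was 68.1. In Cacna1c, the 37.2 kb member at chr6:118622801-118660000 was covered over 34.6 kb in WT MET 2, 23.2 kb in RH VEH 2, 11.2 kb in WT VEH 2, 7.4 kb in RH MET 2 and 7.0 kb in WT MET 1. Heights there were 9 to 15, and the summits lay up to 21.8 kb apart. In Atp2b2, the 31.6 kb member at chr6:113956401-113988000 was filled in WT VEH 1, and covered over 23.8 kb in WT MET 2, 13.0 kb in RH MET 2, 7.2 kb in RH VEH 1 and 6.2 kb in WT MET 1. At 4 calls, the widest was 32.0 kb at chr14:72452401-72484400 over Gm9195 and Gm30500, where RH VEH 2 covered 31.2 kb, WT MET 2 12.8 kb, RH MET 2 9.0 kb and WT MET 1 6.6 kb, with no base in common. At 3 calls, a 27.6 kb member over the clotting genes F10 and Proz, at chr8:13041401-13069000, was covered over 24.8 kb in RH VEH 2, 17.0 kb in WT MET 2 and 8.0 kb in WT VEH 2. In each of these 5 regions the cover of the callers differed several-fold.

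Gene groups differed in how far they reached into the members. Among all protein-coding genes, 3.07% overlapped a member and 29.5% a region called in all 8. None of 103 homeobox genes overlapped a member, while 89 overlapped a region called in all 8. The Wnt, BMP, GDF and FGF ligands gave 1 of 60 (Wnt7a), and forkhead, Sox and T-box factors 2 of 71 (Foxa3 and Foxp4). These shares, 1.67% and 2.82%, are not read as differing from 3.07%. Collagens gave 7 of 42 (16.7%), among them Col6a3, Col6a4 and Col6a6 of the collagen VI family, and sodium and calcium channels 6 of 39 (15.4%), among them Cacna1c, Cacna1d and the sensory neuron channel gene Scn10a. Solute carriers gave 21 of 376, interleukins and their receptors 5 of 78 (Il17rd, Il1f10, Il2rb, Il33 and Il4ra), and olfactory receptors 16 of 1104, 14 of them with their start inside. Among the groups with no member at all were 14 mast cell, basophil and eosinophil genes, 29 inflammatory and interferon genes, 28 complex I genes, 27 genes of the Polycomb and DNA methylation machinery, 23 housekeeping genes and 16 cell cycle inhibitors and tumour suppressors. Lists this short can hold none at the 3.07% of all coding genes, so nothing is read from their lack of members. These counts are descriptions of lists of unequal gene length.

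Of the blood genes, Kit and Prdm16 were the 2 of 30 stem and progenitor genes over a member (6.67%), Mpo and S100a9 the 2 of 29 myeloid genes (6.90%), Vwf the 1 of 23 erythroid and megakaryocyte genes (4.35%), and Dntt and Ebf1 the 2 of 32 lymphoid genes (6.25%), beside 3.07% of all coding genes. The Kit member, at chr5:75572801-75582000 (9.2 kb), spans the start of the gene whose protein was used to enrich the cells. It was covered over 7.0 and 8.2 kb in WT VEH 1 and 2, 5.6 and 8.4 kb in WT MET 1 and 2, and 2.0 kb in RH MET 1, with no interval in RH VEH 1, RH VEH 2 and RH MET 2. Summit heights were 11, 19, 18 and 26 in the WT libraries in that order and 17 in RH MET 1. Every WT library was above every RH library, at means of 7.30 ± 1.29 kb (SD, n = 4) and 0.5 ± 1.0 kb (SD, n = 4).

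Mpo encodes myeloperoxidase of neutrophil granules. Its member, at chr11:87790401-87799200 (8.8 kb), was covered over 8.8 kb in WT VEH 1, 4.2 kb in WT VEH 2 and 6.4 kb in WT MET 2, each at a height of 15. WT MET 1 and all the RH libraries had no interval, so that the genotypes overlapped at 0. S100a9, an alarmin subunit of neutrophils, lay in an 18.4 kb member at chr3:90682801-90701200 covered over 8.6 kb in WT VEH 2, 10.4 kb in WT MET 1, 16.6 kb in WT MET 2, 8.0 kb in RH VEH 2 and 9.6 kb in RH MET 2. Every group was represented there, and no base was common to all callers. Vwf, the von Willebrand factor gene of megakaryocytes and endothelium, lay over a 9.8 kb member at chr6:125599801-125609600 with 6.4 kb in WT VEH 2, 9.6 kb in WT MET 1, 7.4 kb in WT MET 2, 7.0 kb in RH MET 1 and 5.0 kb in RH MET 2. WT VEH 1 and both RH VEH libraries lacked it.

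Dntt encodes terminal transferase, the enzyme that adds nucleotides at antigen receptor joints. Its member, at chr19:41026801-41035600 (8.8 kb), was covered over 8.0 and 6.2 kb in WT MET 1 and 2 and over 3.2 and 5.0 kb in RH VEH 1 and 2, and in no library of WT VEH or RH MET. Heights were 14, 18, 8 and 10 in the same order. Ebf1, a B cell transcription factor, had a member of 11.6 kb within its span, called in WT VEH 2, WT MET 2, RH VEH 2, RH MET 1 and RH MET 2 at 2.2 to 9.0 kb. The gene was also overlapped by intervals of all 8 libraries elsewhere in its span.

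**Figure D5:**
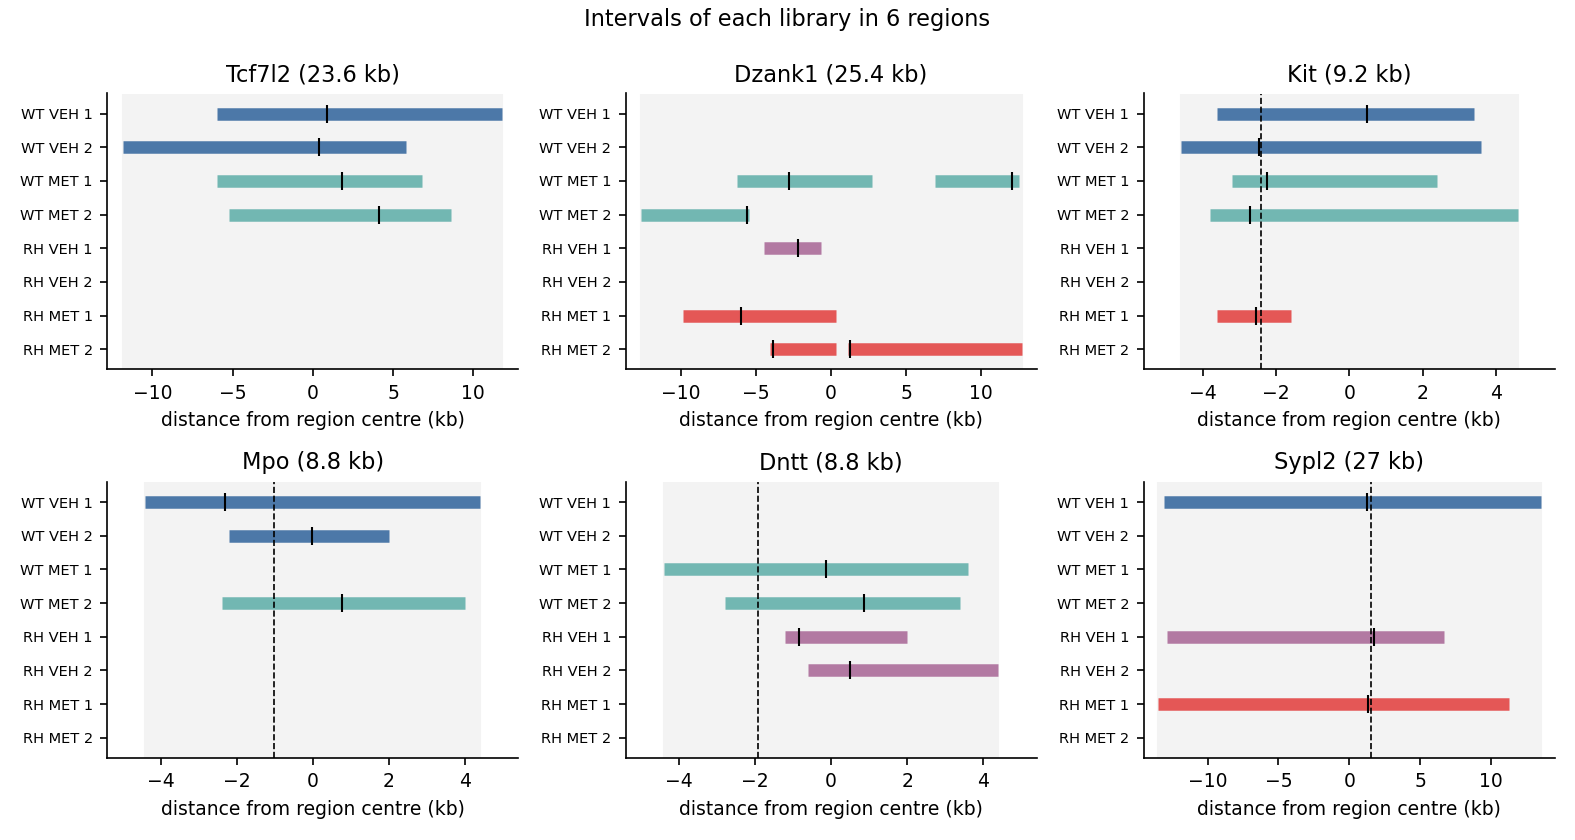
Intervals of each library in 6 of the regions, as distance from the region's centre (kb). Coloured bars are intervals, black ticks their summits, dashed lines the RefSeq start of the gene where it lies inside, and the grey ground is the region. Tcf7l2 has bars in the 4 WT libraries and in no RH library, while Sypl2 has bars in 3 libraries of 3 groups, with summits within 0.512 kb.

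The genotypes were compared by the length that each library covered in each of the 18556 merged regions, with 4 WT against 4 RH libraries. Every WT library covered more than every RH library at 59 members (4.18%), where the background over all regions was 2.84%, and the reverse held at 2 members (0.142%), where it was 0.0916%. Regions of the same width limits called in all 8 gave 5.0% and 0.135%, and those called in 6 or 7 gave 6.12% and 0.242%. For WT above RH, the members' share lay between that of all regions and that of the fully called ones. To separate in this way, a region needs a call in every library of the higher class, so the 461 members with 3 calls could not. Of the 59, 26 were called in every WT and no RH library, a split that the rule favours. The shares thus depend on the number of calls, which the rule used, and nothing is read from their order. The reverse, at 2 members, was too rare for its share to be ranked. After Benjamini-Hochberg adjustment over all regions, the exact permutation test (two-sided, over 70 assignments, with a smallest possible p of 0.0286) called 0 regions, members included. Its smallest adjusted p was 0.975, and 544 regions (2.93%), 61 of them members, had an unadjusted p under 0.05. At that smallest possible p, an adjusted call could be had only if most of the 18556 regions separated the classes. The 0 calls were thus set by the design and are not read as a lack of difference. With each library reduced to its 11620 highest intervals, the 59 fell to 17, and with a minimum summit height of 15 to 0. That minimum kept 34.0% of member calls in WT MET 2 but 4.86% in WT VEH 1 and 3.45% in RH VEH 1. It thus leaves little room for all WT libraries to stand above all RH libraries. Leaving out WT VEH 1 raised the counts to 179 and 3, leaving out WT VEH 2 to 132 and 2, leaving out WT MET 1 to 110 and 3, and leaving out RH VEH 1, which covered 80.0 Mb in all, to 62 and 24. Without WT MET 2 they were 74 and 7 and without RH MET 1 78 and 5, since a condition on fewer libraries is easier to meet. Length covered in the whole library was 142 to 186 Mb in WT and 80.0 to 155 Mb in RH. These ranges overlap, and the part of that length in the counts was not tested.

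Among members with an all-or-none split, 26 were called in all 4 WT and no RH library, where the background was 0.21%, and 1 in all 4 RH and no WT library, at a background of 0.0269%. The rule admits only 3 to 5 calls, which favours such splits by construction, so nothing is read from these shares. Of the 26, 12 overlapped a protein-coding gene. Tcf7l2, a transcription factor at the end of the Wnt pathway, was the widest of them, with 23.6 kb at chr19:55848201-55871800. WT VEH 1 and 2 covered 17.8 and 17.6 kb and WT MET 1 and 2 covered 12.8 and 13.8 kb, with heights of 10 to 14, and the 4 RH libraries had no interval. The WT libraries shared 46.6% of its bases, more than the 22.6% of the median member. Tmprss5, a transmembrane serine protease, lay over an 18 kb member at chr9:49104001-49122000, with 6.8 and 7.8 kb in WT VEH, 7.2 and 10.4 kb in WT MET and none in RH, though no base was common to the 4.

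The other genes in that set are named after their values were seen. Col6a6, a collagen VI chain, held 2 members of the kind, of 14.8 and 11.4 kb, the first over its start. Cilp, a cartilage matrix protein, had its start in a 13.0 kb member covered over 10.2 and 9.8 kb in WT VEH and 7.4 and 10.8 kb in WT MET. Suox, the sulfite oxidase gene, and its neighbour Ikzf4, an Ikaros family zinc finger gene, shared an 11.2 kb member with 9.4 and 6.0 kb in WT VEH and 9.2 and 10.6 kb in WT MET. That member had a median percentile of 62.8, the highest of the 26, whose median was 21.5. Trpc7, a cation channel, Megf11, a protein with many EGF-like domains, Frmpd2, a scaffold protein, Nme8, a ciliary protein, Gm11639 and 4930438A08Rik made up the rest. Glp1r, the receptor of the incretin GLP-1, had 11 and 16.6 kb in WT VEH, 14 and 21.2 kb in WT MET and 9.0 kb in RH MET 1, in a 23.2 kb member at chr17:30926601-30949800, so that its classes did not overlap either.

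In the other direction the 2 members were Dlg4 and a stretch without a coding gene. Dlg4, which encodes the postsynaptic scaffold PSD-95, had its start in a 10 kb member at chr11:70020401-70030400 covered over 4.6 and 5.4 kb in RH VEH 1 and 2, 4.6 and 8.6 kb in RH MET 1 and 2, and 3.4 kb in WT VEH 2. The means were 5.80 ± 1.90 kb (SD, n = 4) in RH and 0.850 ± 1.70 kb (SD, n = 4) in WT. The second, 8.8 kb at chr4:98318001-98326800 and 28.6 kb from Tm2d1, was covered over 2.6 to 7.0 kb in the 4 RH libraries and not in WT.

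Within vehicle, WT and RH were compared over 2 libraries each by counting members called in both libraries of one group and neither of the other, and no test was made of these counts. A region called in all 8 cannot split in this way and members, with 3 to 5 calls, can, so that their share exceeds the background by construction. The same holds for the other comparisons of 2 libraries with 2 below, and only the members and the 2 directions are described. In WT VEH and not RH VEH there were 186 members (14.4% of the 1294 called in at least 1 of the 4), at a background of 3.28%, and in RH VEH and not WT VEH 18, at a background of 0.604%. Col23a1, a transmembrane collagen, was the widest of the former among members with a coding gene, with 14.4 and 6.4 kb in WT VEH 1 and 2, 23.2 kb in WT MET 2 and nothing in the other five. Klk15, a kallikrein protease gene, was among the latter, with 5.8 and 6.6 kb in RH VEH 1 and 2, and it was also covered over 10.6 and 5.2 kb in WT MET 1 and 2 and 6.8 kb in RH MET 2. Without each library in turn the first count was 200 to 466, highest without WT VEH 1, and the second 28 to 175. Without RH VEH 1 they were 200 and 175. That library called 12.3% of members, and leaving any library out also loosens the condition, so the part of its low calling in the 2 counts was not tested.

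Within metformin, 198 members (14%) were called in both WT MET and neither RH MET library, at a background of 3.89%, and 38 the other way, at a background of 1.41%. Slc6a12, whose CpG-poor start is printed above, was among the first, with 7.6 and 10 kb in WT MET 1 and 2, 24.6 kb in WT VEH 1 and no RH interval. Trank1 was another, with 9.4 and 19.8 kb in WT MET 1 and 2, 7.6 kb in WT VEH 2 and 9.8 kb in RH VEH 2. Among the second, Ncoa3, a coactivator of nuclear receptors, had 2.2 and 2.8 kb in RH MET 1 and 2 and 14.8 kb in RH VEH 2, without a WT interval. Without each library in turn the counts were 219 to 452, highest without RH MET 1, and 53 to 161. Without WT MET 2, the library with the widest cover, they were 219 and 161.

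Metformin against vehicle was compared in the same way, over the same 8 libraries. Every MET library covered more than every VEH library at 42 members (2.97%), at a background of 0.862%, and the reverse held at 0, at a background of 0.0862%. Regions of the same width limits called in all 8 gave 0.847% and 0.173%, and those called in 6 or 7 gave 1.37% and 0.0806%. Here too a region needs a call in every library of the higher class to separate. The shares thus depend on the number of calls, and nothing is read from their order. Of the 42, 30 were called in every MET and no VEH library, a split that the rule favours. With each library reduced to its 11620 highest intervals, the 42 fell to 10, and with a minimum summit height of 15 to 6. The exact permutation test called 0 regions after Benjamini-Hochberg adjustment, with a smallest adjusted p of 1, and 176 regions (0.948%) had an unadjusted p under 0.05, 42 of them members. As for genotype, an adjusted call could be had only if most regions separated the classes, so nothing is read from the 0 calls. Leaving out either RH MET library raised the 42 to 100, WT VEH 2 to 80, WT MET 1 to 76, RH VEH 2 to 65 and WT VEH 1 to 63, while without RH VEH 1 the 2 counts were 48 and 13. The number of intervals was 15257 to 16879 in the MET libraries and 11620 to 16259 in the VEH libraries. These ranges overlap too, and the part of that number in the counts was not tested. The genotype and treatment comparisons use the same libraries and are not independent of each other.

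An all-or-none split by treatment was found at 30 members, called in every MET and no VEH library at a background of 0.313%, and at 0 in the reverse, at a background of 0.00539%. Of the 30, 16 overlapped a coding gene, and their smallest cover among the MET libraries had a median of 3.5 kb. Kcnip1, a subunit that tunes Kv4 potassium channels, held the widest of these 16, 21.8 kb at chr11:33777401-33799200, covered over 4.2 and 20.2 kb in WT MET 1 and 2 and 5.4 and 5.6 kb in RH MET 1 and 2. Sspo, which encodes the brain secretory protein SCO-spondin, had 8.4, 20.2, 5.8 and 9.4 kb in the same libraries, in a 21.4 kb member at chr6:48472401-48493800. In both, WT MET 2 supplied most of the width, and heights were 9 to 15. Dzank1 also had every MET library above every VEH library in its 25.4 kb member at chr2:144491401-144516800, at 14.6, 7.2, 10.2 and 16.0 kb under metformin against 3.8 kb in RH VEH 1 and none in the other vehicle libraries.

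The remaining genes called in every MET and no VEH library are again named after their values were seen. Nr1i2, the xenobiotic receptor PXR, had 4.4 and 8.4 kb in WT MET and 6.2 and 6.6 kb in RH MET. Abcc9, a sulfonylurea receptor subunit of potassium channels, had 11.2 and 6.8 kb and 5.6 and 5.2 kb. Ereg, the EGF receptor ligand epiregulin, had 9.8 and 8.8 kb and 2.2 and 4.4 kb. Nav2 held 2 such members, of 12.2 and 10 kb. N6amt1, a methyltransferase gene, had its start in a member with 5.4 and 6.8 kb in WT MET and 8.6 and 11.6 kb in RH MET, and Rtf1, a subunit of the PAF1 complex, shared one with the histone gene H3f3c at 5.0 and 7.6 kb and 3.8 and 2.6 kb. The others lay in Kcnd3, a Kv4 channel, Myh7, the slow muscle myosin, Tgm3, a transglutaminase, Smoc1, a matrix protein, Rab30, a Golgi GTPase, Coq7, an enzyme of ubiquinone synthesis, and Pcp4l1.

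By genotype, 210 members were called in both RH MET libraries and in neither of RH VEH (16.3%), at a background of 4.99%, and 18 went the other way, at a background of 0.365%. In WT the matching number, for both WT MET libraries and neither of WT VEH, was 205 (14.6%), at a background of 4.37%, and 19 the other way, at a background of 0.517%. Olfr332, an olfactory receptor gene, was among those found in RH VEH and not RH MET, with 5.8 and 18.2 kb in RH VEH 1 and 2. It was also covered over 15.2 and 11.4 kb in WT VEH 1 and 2 and 8.8 kb in WT MET 2. Pdlim7, a gene of the actin cytoskeleton, was among those found in WT VEH and not WT MET, with 2.8 and 9.4 kb in WT VEH 1 and 2 and 3.0 kb in RH MET 1. Without each library in turn the RH counts were 242 to 408, highest without RH MET 2, and 29 to 155, and the WT counts 236 to 528, highest without WT VEH 2, and 33 to 109. Without RH VEH 1 the RH counts were 242 and 155, and without WT MET 2 the WT counts were 236 and 109, in a condition that is easier to meet with fewer libraries. Whether the response to metformin differed between genotypes was not tested.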

How the data were processed

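H3K27me3 was measured by chromatin immunoprecipitation sequencing in 8 libraries, and 1 input library has no interval list analysed here. Per the labels' protocols, formaldehyde-fixed cells went to Active Motif and libraries were read on a NovaSeq. The submitters' processing notes name bcl2fastq 2.20, BWA 0.7.12 and mm10 without roles. As to the caller, its settings, filters, depth adjustment and use of the input, none is stated in the sources used here. Per the file headers, the authors deposited for each library an interval track and a summit track, and 1 merged region track. The summit height, a score that the authors deposited in whole numbers, has no unit in the headers and was used to rank or filter intervals within a library. All edges fell on multiples of 200 bp, and widths count both end bases. Depth is unknown, which limits how firmly a missing interval can be read.

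From these files, cover, calls, summit percentiles (midrank over the library's intervals, highest summit per region) and gene overlaps were computed with Python 3.11.15, numpy 2.4.6, pandas 2.3.3 and scipy 1.17.1, and plots were drawn with matplotlib 3.10.9. Gene spans and starts came from RefSeq tables of GRCm38.p6. Covered length was compared by an exact permutation test, two-sided, over 70 assignments of 4 libraries against 4 on all 18556 regions, with Benjamini-Hochberg adjustment and a threshold of 0.05. The test was checked on simulated data. Whether the 2 libraries of a group stem from separate mice is not in the labels, so p-values here reflect spread among libraries that may be technical. Labels share replicate numbers across groups, but deviations of number 1 libraries correlated at -0.0158 to 0.0352, so the numbers were not taken to pair samples. Named were the 6 widest members with a coding gene per number of calls, up to 3 per group pattern, the 5 with the highest median percentile, and up to 4 per gene list. Members and lists were chosen with earlier results of these data known. Alternatives were a minimum summit height, an equal number of intervals, other overlap and width limits, exactly 4 calls, the replicate block, and each library left out. The X chromosome was left out by the rule. One marker gene is not reported here.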

Additional observations from a re-analysis of the deposited data

Results flagged for a closer look

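In 7 of the members described or counted here, WT and RH libraries moved in opposite directions under metformin, which no test examined. In each genotype of these 7, both libraries of one treatment covered more than both of the other. The 7 are not a full list of such members. The Map3k9 member, for example, had 9.8 and 12 kb in WT VEH against 0 and 5.8 kb in WT MET. In RH it had 6.4 and 6.8 kb under metformin and none under vehicle. At further members only the means moved in opposite directions. Over BC024139 and Eppk1 they were 6.4 kb in WT VEH and 18.8 kb in WT MET, against 27.3 kb in RH VEH and 14.8 kb in RH MET. The Dntt member had 7.1 kb more cover under metformin than under vehicle in WT (means of 7.1 against 0 kb) and a difference of -4.1 kb in RH (0 against 4.1 kb). The member in Adgrv1, an adhesion receptor of the inner ear, differed by 11.9 kb in WT and by -3.9 kb in RH, where RH MET 1 still covered 5.2 kb. A stretch of 18.2 kb on chr19:60685401-60703600, 52.4 kb from Nanos1, differed by 13.4 kb in WT and -7.7 kb in RH.

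The other four had cover in both WT VEH and both RH MET libraries and in none of the rest, and none overlapped a protein-coding gene. Near Proser2 the differences were -10.9 kb in WT and 3.6 kb in RH, near Aco1 -7 kb and 5.9 kb, near Izumo2 -6.3 kb and 5 kb, and near Lonrf1 -9.6 kb and 9.5 kb. Summit heights in these 4 were 7 to 15. Over all 18556 regions, 11 showed such an all-or-none crossing between both libraries of each group, and 6 of those were members, a number the rule favours because each such region has exactly 4 calls.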

How the results depend on the processing

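Counting only intervals with a summit height of at least 15 left 17.1% of member calls, and 798 members (56.5%) lost every call. Under it 1097 regions met the rule, of which 89 were among the 1413, so that membership turned over almost wholly, and with an equal number of intervals 1208 met it, 591 of them among the 1413. Under that minimum, members covered more in WT were 0, in RH 0 and under MET 6. The members in both libraries of one group and neither of the other were then 3 (WT VEH, not RH VEH), 1 (reverse), 46 (WT MET, not RH MET), 9 (reverse), 33 (RH MET, not RH VEH), 0 (reverse), 57 (WT MET, not WT VEH) and 1 (reverse), and the median percentile was 51.7. With the 11620 highest intervals of each library, the counts were 17 for WT, 10 for MET and 1 for VEH, and 88, 94, 80, 91 and 41 for WT VEH not RH VEH, WT MET not RH MET, RH MET not RH VEH, WT MET not WT VEH and its reverse, with a median percentile of 38.4. The cause of these moves beyond the loss of intervals was not tested.

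With calls that need 50% of the region, 2824 regions met the rule, 641 of them among the 1413. Among members of exactly 4 calls, fewer by construction, the counts were 26 for WT and 1 for RH, and, in the order used above with each reverse, 58, 5, 74, 17, 78, 9, 82 and 9. Among members of at least 12000 bp they were 27 for WT, 0 for RH and 13 for MET, and 93, 8, 106, 10, 77, 10, 93 and 6. With the replicate block, the counts for WT, RH, MET and VEH were 77, 3, 55 and 1, though nothing in the data paired the libraries by number.

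Leaving out each library in turn gave 62 to 179 members for WT, 2 to 24 for RH, 48 to 100 for MET and 0 to 13 for VEH. The ranges were 200 to 466 for WT VEH not RH VEH, 28 to 175 for the reverse, 219 to 452 for WT MET not RH MET, 53 to 161 for the reverse, 242 to 408 for RH MET not RH VEH, 29 to 155 for the reverse, 236 to 528 for WT MET not WT VEH and 33 to 109 for the reverse. Median cover ranged from 53.3% to 62.0% and the median percentile from 24.3 to 26.2.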
